A study of Bos taurus with 18 samples.

Results

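The endometrium of 3 Holstein cows, called A, B and C, was compared on day 7 of a cycle in which they received a depot formulation of 17α-hydroxyprogesterone caproate (17-OHPC) with progesterone (P4), and on day 7 of an earlier, untreated cycle. The comparison uses 6 of the 18 RNA-seq libraries of the study, the control and the treated library of each cow, paired by cow. The formulation held 100 mg of 17-OHPC together with 10 mg of P4 and was given on day 4 after estrus. The other 12 libraries were the day 4 control libraries of the same cows and 9 libraries of 3 further cows, D, E and F. These were sampled on the same 2 days without treatment, and on day 7 of their second cycle, in which 100 mg of P4 had been given on day 4. All 6 cows were brought into each cycle by Ovsynch, a hormone protocol that sets the time of ovulation, and the age of the cows is not given in the sources used here. Cells were taken with a cytobrush from the horn ipsilateral to the corpus luteum, so that the material is what a brush lifts from the surface and not a full section of the uterine wall. In every cow the treated cycle came second, after the uterus had been brushed on day 4 and day 7 of the first cycle. Treatment, order of the cycles and earlier sampling therefore cannot be told apart.

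Progesterone from the corpus luteum prepares the uterus for a conceptus. It acts mainly through the nuclear progesterone receptor, encoded by PGR, whose level in the uterine epithelium is known to drop as exposure to progesterone goes on, while genes for transport, secretion and lipid handling come up. An early supply of progestogen in the first days after estrus is known to bring this luteal programme forward in cattle. 17-OHPC is a synthetic ester of 17α-hydroxyprogesterone that is released slowly from an oily depot and acts as a progestogen.

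The 6 libraries held between 32818851 and 39463921 counts. Levels are given as CPM, counts scaled to library size, and 3 values in a row always stand in the order of cows A, B and C. Changes are log2 of treated over control within a cow, and fitted changes carry their standard error (SE). The markers of epithelium, the cell type a brush should take up, summed to 3832, 4390 and 4605 CPM in the control and 3386, 4244 and 3733 CPM in the treated libraries of cows A, B and C. All 10 epithelial markers were present. The defining stromal markers, 6 in number, summed to 4001 and 2764 CPM in the control and treated libraries of cow C, against 101.7 to 501.5 CPM in those of cows A and B. Haemoglobin and other red blood cell markers stood at 4166 CPM in the control and 358.3 CPM in the treated library of cow C, against at most 4.15 CPM in cows A and B. Both libraries of cow C stood apart in this way, and the results below are given for each cow so that they can be read with and without it. In bulk RNA, fewer cells of a type and less RNA per cell cannot be told apart.

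No gene passed the adjusted threshold. Of 19638 genes tested with edgeR's quasi-likelihood test, with the cow as a block and all 18 libraries in the fit, 0 (0.0%) were called higher and 0 (0.0%) lower in the treated cycle at an adjusted p under 0.05, and the lowest adjusted p was 0.87. At an unadjusted p under 0.05 there were 363 genes (1.85%) with higher and 487 (2.48%) with lower values, 850 (4.33%) in all. The precision of a change was limited by the 3 cows: the median 95% interval reached 0.81 on the log2 scale to either side, and 11606 genes (59.1%) had an interval narrower than 1 to either side. In the same fit the untreated day 7 libraries of these cows differed from their day 4 libraries at 105 genes with higher and 3 with lower levels, and the P4 cows at 1535 and 1440 genes. Another tool, DESeq2, called 2 genes higher and 6 lower. Of these 8, IL4R, KRT15 and ALDOC are described below. EPHA3, MSMB and TMPRSS11A had counts in only 1 or 2 of the 6 libraries, none of them treated. The pair with higher values, ENSBTAG00000000524 and ENSBTAG00000069567, has no symbol in the table. ENSBTAG00000000524 stood at 451, 506 and 468 CPM in the control and 789, 749.6 and 686 CPM in the treated libraries. Its adjusted p was 0.0448 in DESeq2 and 0.87 in edgeR's quasi-likelihood test.

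Since no gene passed, genes are named below as values and not as changes. The 10 with the smallest p among those higher in 3 of 3 cows, and the 10 among those lower in 3 of 3, were taken; 3811 genes (19.4%) were higher and 4108 (20.9%) lower in 3 of 3 cows, so agreement in sign alone is common. All 20 had an adjusted p of 0.87 by edgeR's quasi-likelihood test. A smaller share of genes kept the groups apart, with every treated library above every control library at 782 genes (3.98%) and below at 898 (4.57%).

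Among the higher genes, SAT1 encodes the acetyltransferase that starts the breakdown of the polyamines spermidine and spermine. It stood at 977, 802 and 922 CPM in the control and 2564, 1584 and 1534 CPM in the treated libraries. Every treated library was above every control library, and the day 4 libraries were lower again, at 554, 225 and 227 CPM. The fitted log2 change was 1.01 ± 0.30 (SE; 95% interval 0.35 to 1.67; unadjusted p = 0.00613, adjusted p = 0.87 by edgeR). SMCO4, a small membrane protein with a coiled coil, was measured at 44.8, 43 and 27.1 CPM in the control and 109, 77.7 and 49.2 CPM in the treated libraries. Its lowest treated library lay above its highest control library, and its log2 change was 0.99 ± 0.25 (SE). DLG5, a scaffold protein of epithelial polarity and cell junctions, stood at 241, 395 and 628 CPM in the control and 711, 674 and 830.3 CPM in the treated libraries. The groups did not overlap, although cow C began almost as high as the treated libraries of cows A and B, and the log2 change was 0.88 ± 0.25 (SE). LRRC1, a scaffold protein of the basolateral membrane, had a log2 change of 0.74 ± 0.20 (SE).

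Further higher genes had the following values. DROSHA, the nuclease that cuts primary microRNA transcripts, stood at 45.1, 31.2 and 40.7 CPM in the control and 87.5, 50.7 and 49.9 CPM in the treated libraries. TUT4, which adds uridines to RNA ends, microRNA precursors among them, stood at 93.6, 58.6 and 67.2 CPM in the control and 223, 80.7 and 90.9 CPM in the treated libraries. The treated library of cow A was the highest of the 6 for both, and only DROSHA kept the groups apart. Their log2 changes were 0.65 ± 0.19 and 0.73 ± 0.21 (SE). TOPORS, a ligase for ubiquitin and SUMO, had a log2 change of 0.60 ± 0.16. GATC, a subunit of the enzyme that completes mitochondrial glutaminyl-tRNA, had 0.59 ± 0.15, and TBCEL, a tubulin cofactor, 0.49 ± 0.14 (SE, n = 3 cows). Cow A had the highest of the 3 within-cow changes at all 10 of the higher genes.

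**Figure D1:**
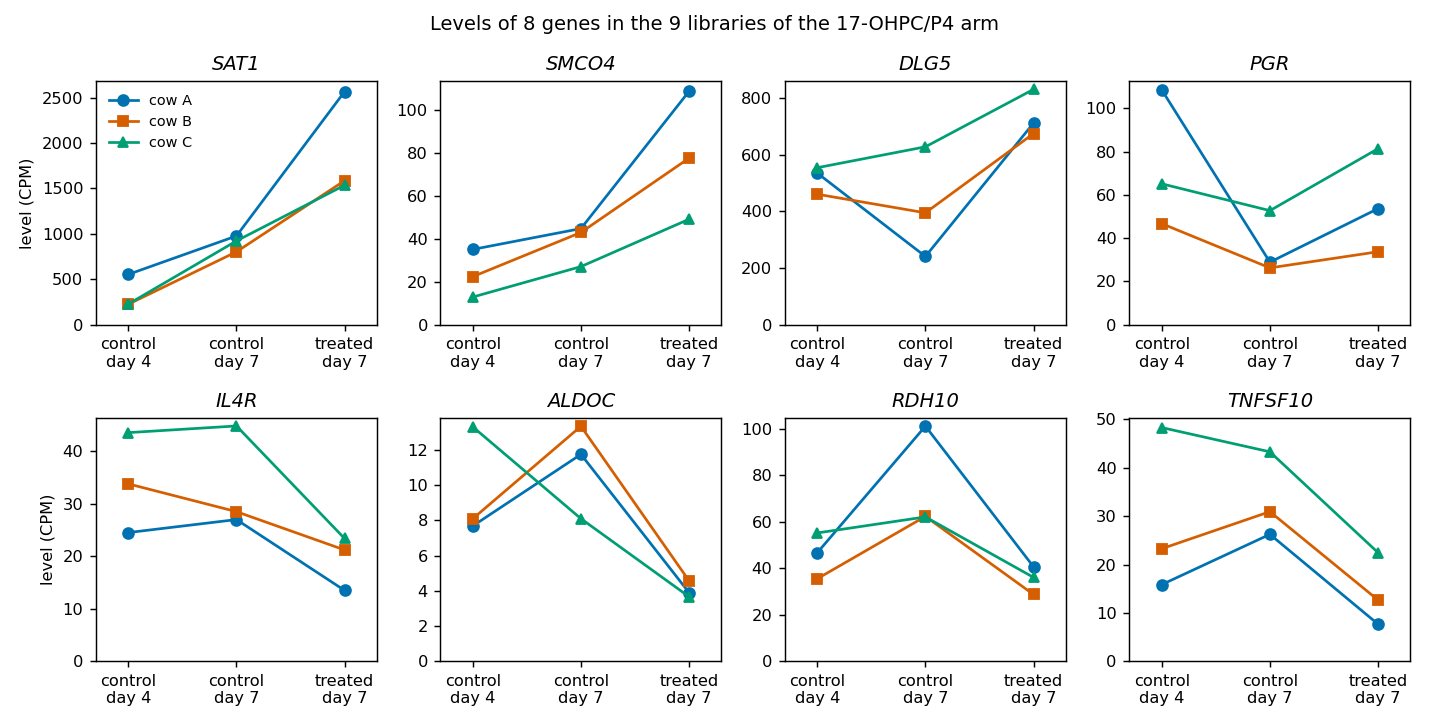
Level in CPM (vertical axis, from 0) of 8 genes in the 9 libraries of cows A, B and C on day 4 and day 7 of the control cycle and day 7 of the treated cycle; each line joins the libraries of a cow. SAT1, SMCO4 and DLG5 have every treated library above every control day 7 library, PGR is higher in each cow but overlaps, and IL4R, ALDOC, RDH10 and TNFSF10 have every treated library below every control day 7 library.

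Among the lower genes, IL4R had the smallest p of all genes tested. It encodes the receptor chain shared by interleukin-4 and interleukin-13. It stood at 27, 28.5 and 44.9 CPM in the control and 13.5, 21.2 and 23.4 CPM in the treated libraries. The groups did not overlap, and the log2 change was -0.79 ± 0.14 (SE; 95% interval -1.10 to -0.48; unadjusted p = 0.000149, adjusted p = 0.87 by edgeR; adjusted p = 0.00176 in DESeq2). ALDOC, an aldolase of glycolysis, stood at 11.7, 13.3 and 8.1 CPM in the control and 3.9, 4.58 and 3.67 CPM in the treated libraries. All treated libraries lay within 3.67 to 4.58 CPM, below the lowest control library, and the log2 change was -1.45 ± 0.32 (SE). TNFSF10, the death ligand also known as TRAIL, was measured at 26.3, 31 and 43.3 CPM in the control and 7.71, 12.7 and 22.5 CPM in the treated libraries. RDH10, which oxidises retinol on the way to retinoic acid, stood at 101, 62.3 and 62 CPM in the control and 40.6, 28.7 and 36.1 CPM in the treated libraries. For both the highest treated library was below the lowest control library, and the log2 changes were -1.35 ± 0.33 and -1.08 ± 0.26 (SE).

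KRT15, a keratin of basal epithelial cells, had the widest change of the 20 genes, -2.97 ± 0.71 (SE; 95% interval -4.53 to -1.41), with 5.17, 46.1 and 8.2 CPM in the control and 0.8, 2.83 and 2.33 CPM in the treated libraries. The control library of cow B was far above the other control libraries. TMPRSS4, a membrane-bound serine protease, was low throughout, with 3.16, 4.09 and 4.71 CPM in the control and 0.576, 0.379 and 1.73 CPM in the treated libraries, and its log2 change was -2.41 ± 0.58 (SE). CD44, the receptor for hyaluronan, stood at 70.8, 194 and 126 CPM in the control and 13.6, 83.8 and 47.8 CPM in the treated libraries. Here the groups overlapped across cows, since the treated library of cow B was above the control library of cow A, and the log2 change was -1.69 ± 0.42 (SE). CXCL2, a chemokine that attracts neutrophils, had a log2 change of -2.15 ± 0.54. RNASET2, a ribonuclease of lysosomes and secretions, had -0.96 ± 0.24, and CRAT, which moves acetyl groups onto carnitine, -0.47 ± 0.12 (SE).

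**Figure D2:**
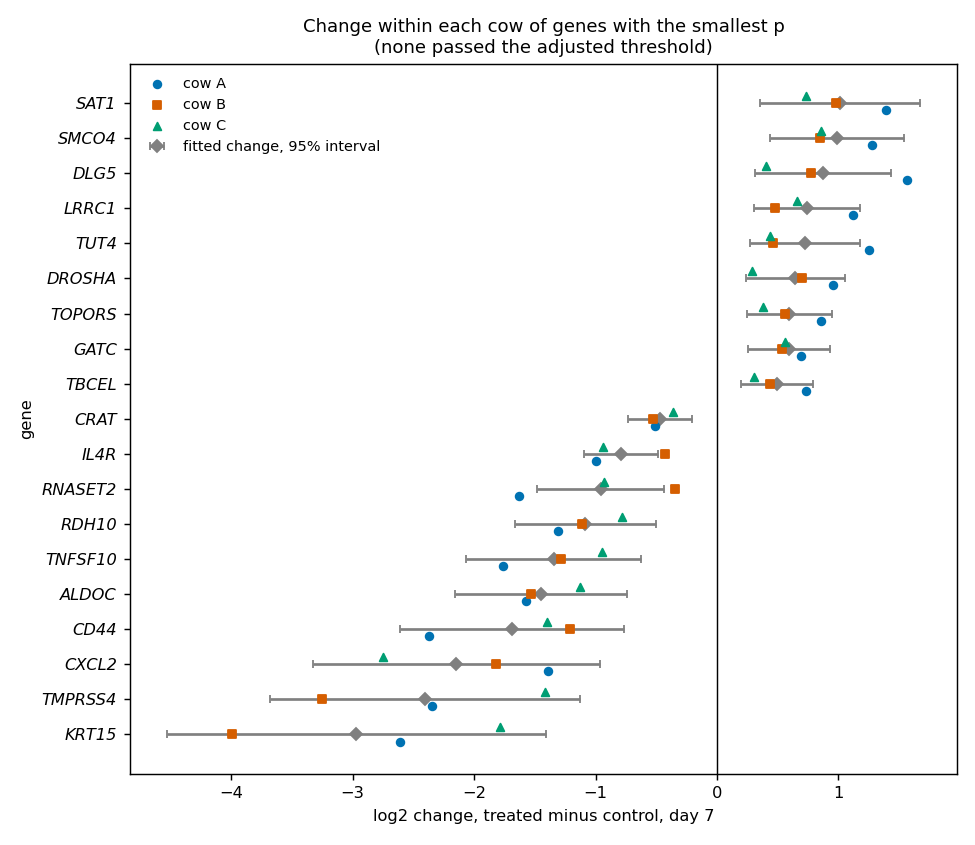
Log2 change of treated over control on day 7 (horizontal axis) for genes described in the text from the 20 with the smallest p that were higher or lower in 3 of 3 cows; coloured points are the cows and grey diamonds with bars the fitted change with its 95% interval. No interval drawn reaches 0, which follows from choosing the genes by their smallest p, and the adjusted p of each gene was 0.87. The within-cow values of KRT15 and TMPRSS4 spread most.

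Large differences were mostly in the lower direction. In 3 of 3 cows, 29 genes (0.148%) were higher by at least 1 on the log2 scale and 139 (0.708%) were lower by at least 1. Of those 29, 20 had no symbol of their own, 14 had a mean level of at least 1 CPM and 2 of at least 10 CPM. Of the 139, 94 had a mean of at least 1 CPM and 31 of at least 10 CPM. Direction also varied with level among genes not called between day 4 and day 7 of untreated cows D to F. From 1 to 10 CPM, 27.17% of them were lower and 9.95% higher in 3 of 3 cows. Above 100 CPM, 14.73% were lower and 35.37% higher. Beside the genes already named, the 139 held SLCO2A1, the prostaglandin transporter, with 2.77, 3.34 and 4.54 CPM in the control and 0.192, 1.29 and 1.64 CPM in the treated libraries. TCN1, a vitamin B12-binding secretory protein of neutrophil granules and glands, had 8.78, 34.4 and 66 CPM in the control and 1.15, 6.45 and 9.26 CPM in the treated libraries. BPI, a bactericidal granule protein, had 2.63, 18.3 and 16 CPM in the control and 0.384, 2.81 and 5.97 CPM in the treated libraries. FCGR2B, the inhibitory Fc receptor of B cells and macrophages, had 5.17, 26.6 and 25.4 CPM in the control and 0.704, 5.39 and 7.83 CPM in the treated libraries, and C5AR1, the receptor for complement C5a, had 18.1, 27.5 and 25.8 CPM in the control and 2.91, 12.5 and 8.3 CPM in the treated libraries. PYCARD, the adaptor of the inflammasome, had 6.61, 22 and 12.8 CPM in the control and 2.08, 6.02 and 5.89 CPM in the treated libraries. These were chosen from the 139 after their values were seen. In cow B the defining marker sums went the other way, from 20.2 to 36.6 CPM for neutrophils and 55.98 to 84.5 CPM for macrophages. All of these genes were also lower with treatment in the P4 cows. There the log2 changes were -1.12 for SLCO2A1, -2.18 for TCN1 and -2.18 for BPI. They were -3.76 for FCGR2B, -2.17 for C5AR1 and -0.92 for PYCARD. MCTP1, a membrane protein with calcium-binding C2 domains, was the gene with a symbol and the smallest p among the 29, at 19.5, 11.8 and 9.13 CPM in the control and 108, 24.7 and 24.5 CPM in the treated libraries. The spread differed between cows: 23.28% of genes moved by at least 1 in cow A, 15.3% in cow B and 10.53% in cow C.

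Genes that rise between day 4 and day 7 of an untreated cycle were mostly higher in the treated cycle. To avoid the control libraries of cows A to C, these genes were taken from the other 3 cows: 1535 genes (7.82% of those tested) were called higher and 1440 (7.33%) lower on day 7 than on day 4 of the untreated cycle of cows D to F. In cows A to C the median log2 change with treatment was 0.28 over the 1535 risers and -0.13 over the 1440 fallers, against -0.04 over all genes tested. Of the risers, 839 (54.7%) were higher in 3 of 3 cows and 60 lower; over all genes these shares were 19.4% and 20.9%. Of the fallers, 472 were lower in 3 of 3 cows and 122 higher. The medians of the risers were alike in the 3 cows, 0.29 in cow A, 0.30 in cow B and 0.28 in cow C, and 72.18%, 79.28% and 83.71% of risers were above 0. The 95% intervals of single risers were wide, and none passed the adjusted threshold.

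The libraries show the same order in each cow. The mean level of the risers, on the log2 scale relative to each gene's mean over the 18 libraries, was -0.41 on day 4, 0.62 on day 7 of the control cycle and 0.93 in the treated cycle in cow A. In cow B it was -0.92, 0.12 and 0.43, and in cow C -1.07, -0.15 and 0.14. In each cow the step from control to treated day 7 was smaller than the step from day 4 to day 7. The riser median was above that of the genes that were neither risers nor fallers at every level: 0.34 against -0.15 below 1 CPM, 0.26 against -0.22 from 1 to 10 CPM, 0.24 against -0.01 from 10 to 100 CPM and 0.41 against 0.10 above 100 CPM. The fallers lay nearer to those other genes, at -0.16, -0.24, -0.12 and 0.01 in the same bins. With risers called in the control libraries of cows D to F alone, which gave 719 risers and 470 fallers, the medians were 0.42 and -0.16. Leaving out a day 7 library moved the riser median between 0.26 (without the treated library of cow A) and 0.39 (without the control library of cow D), and the faller median between -0.28 and -0.05. The faller median moved by over 1.5 times without either library of cow A (-0.21 without the control, -0.06 without the treated one), without the treated library of cow B (-0.22), without the control library of cow C (-0.05) and without the control library of cow F (-0.28).

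**Figure D3:**
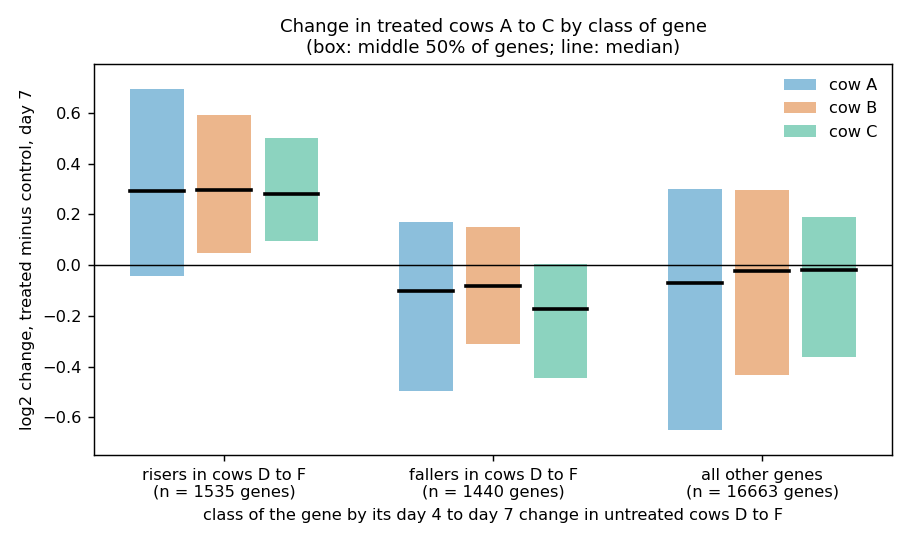
Log2 change of treated over control on day 7 in cows A, B and C (vertical axis) for the risers and fallers of untreated cows D to F and all other genes; boxes span the middle 50% of genes and black lines are medians. The riser medians lie between 0.28 and 0.30 in all 3 cows, those of the fallers between -0.17 and -0.08 and those of the other genes between -0.07 and -0.02.

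Of the 10 higher genes named above, 7 were risers, and of the 10 lower genes 2 were risers (ALDOC and CRAT) and 2 fallers (IL4R and TNFSF10). The genes that mark the early luteal response went both ways. In the list of 30 genes known to respond to progesterone early in the luteal phase, 0 were called, 7 were higher and 9 lower in 3 of 3 cows, and the median log2 change was -0.31. That median was -0.11 without the control library of cow A and -0.59 without the treated library of cow B. The 11 risers among the 30 genes had a median of 0.38, with 5 higher and 1 lower in 3 of 3 cows. The diacylglycerol acyltransferase DGAT2, which makes triglycerides, had been at 4.73, 0.997 and 1.44 CPM on day 4. On day 7 it stood at 625, 234 and 121 CPM in the control and 287, 265 and 117 CPM in the treated libraries. The cows differed in direction, and the change was -0.29 ± 0.56 (SE; 95% interval -1.53 to 0.96). LY6G6E, a surface protein of the LY6 family, stood at 431, 321 and 317 CPM in the control and 331, 275 and 298 CPM in the treated libraries, slightly lower in each cow with overlapping groups. MYH7B, a myosin heavy chain, was higher in each cow, at 626, 176 and 204 CPM in the control and 783, 444 and 360.4 CPM in the treated libraries, with a log2 change of 0.82 ± 0.42 (SE). ANPEP, an aminopeptidase of the apical membrane, was also higher in each cow, at 1692, 2375 and 1973 CPM in the control and 6646, 3748 and 3443 CPM in the treated libraries, and its values kept the groups apart. The protease inhibitor TIMP3 stood at 332, 283 and 274 CPM in the control and 1307, 513 and 400.5 CPM in the treated libraries. TIMP3 also had its lowest treated library above its highest control library. The log2 changes were 1.05 ± 0.58 for ANPEP and 1.25 ± 0.59 for TIMP3 (SE).

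Other early luteal genes were lower in each cow, among them TINAGL1, IGFBP1 and LGALS9, which were not risers. TINAGL1, a matrix protein of the uterus, stood at 323, 64.9 and 83 CPM in the control and 4.96, 44.8 and 30.2 CPM in the treated libraries. The treated libraries were all below the control libraries, but the difference in cow A was far larger than in the other cows, and the log2 change of -2.72 ± 1.53 (SE) had a 95% interval of -6.10 to 0.65. IGFBP1, a binding protein for insulin-like growth factors, stood at 49.4, 5.04 and 3.9 CPM in the control and 0, 1.9 and 0.931 CPM in the treated libraries, again with the highest value in the control library of cow A. LGALS9, a galectin, had 38.4, 48.3 and 46.8 CPM in the control and 11.4, 33.9 and 21.3 CPM in the treated libraries. The glutamate transporter SLC1A1 stood at 2126, 964 and 368 CPM in the control and 1914, 1368 and 632 CPM in the treated libraries. It had a log2 change of 0.38 ± 0.37, and MSTN, the growth inhibitor myostatin, of -1.16 ± 1.21 (SE). Both differed in direction between cows.

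The progesterone receptor itself was higher in each treated library than in its control. PGR stood at 28.9, 26.3 and 52.7 CPM in the control and 53.6, 33.7 and 81.4 CPM in the treated libraries. On day 4 it had been 109, 46.7 and 65.1 CPM, so that it was lower on untreated day 7 than on day 4 in 3 of 3 cows. The groups overlapped, since the treated value of cow B was below the control value of cow C, and the log2 change was 0.61 ± 0.25 (SE; 95% interval 0.06 to 1.16; unadjusted p = 0.033, adjusted p = 0.87 by edgeR). The estrogen receptor ESR1 stood at 306, 419 and 426 CPM in the control and 303, 285 and 449 CPM in the treated libraries, with a log2 change of -0.17 ± 0.30 (SE). NR3C1, the glucocorticoid receptor, was lower in each cow, at 22.5, 26.6 and 48.2 CPM in the control and 14.1, 19.1 and 25.6 CPM in the treated libraries, with -0.69 ± 0.37 (SE). FKBP5, a co-chaperone of steroid receptors that progestogens and glucocorticoids induce, differed between cows, at 209, 236 and 230.4 CPM in the control and 512, 185 and 295 CPM in the treated libraries, with 0.43 ± 0.41 (SE). Of the 21 receptors and co-chaperones 0 were called, 3 were higher and 6 lower in 3 of 3 cows, and the median was -0.16. It was 0.05 without the control library of cow A and -0.04 without the treated library of cow C.

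Genes known as targets of the progesterone receptor had a median log2 change of -0.51 over 23 genes, 0 of them called, with 7 lower and 3 higher in 3 of 3 cows. Without the control library of cow B the median was -0.16, and without the treated library of cow A it was -0.32. The median counts each gene alike, and the summed level, set mostly by genes of high level, went the other way. Summed over the 23 genes it was 2914, 1344 and 1741 CPM in the control and 3346, 2028 and 1985 CPM in the treated libraries. The lower ones included CEBPB, a transcription factor of the decidual response, at 84.4, 46.7 and 102 CPM in the control and 25.6, 42.3 and 49.3 CPM in the treated libraries. FOXO1, another such factor, stood at 31.1, 34.6 and 34 CPM in the control and 15.1, 23.4 and 21.9 CPM in the treated libraries. Only FOXO1 kept the groups apart, and the log2 changes were -0.99 ± 0.40 for CEBPB and -0.76 ± 0.36 for FOXO1 (SE). BMP2, a growth factor of the same response, had 2.43, 4.03 and 18.2 CPM in the control and 1.41, 1.92 and 4.27 CPM in the treated libraries. The higher ones were GATA2, a factor that maintains PGR in the uterus, EPAS1, a hypoxia-inducible factor, and PTCH1, the hedgehog receptor. GATA2 stood at 950.3, 383 and 420.4 CPM in the control and 1468, 762 and 639.9 CPM in the treated libraries. IHH, the hedgehog ligand of the uterine epithelium, had a log2 change of -0.60 ± 0.68 and HAND2, a stromal transcription factor, 0.66 ± 0.83 (SE), and neither had the same direction in 3 of 3 cows.

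Steroid-metabolising enzymes had a median of -0.65 over 18 genes, 0 called, with 10 lower and 4 higher in 3 of 3 cows; the median was -0.36 without the treated library of cow A. HSD11B1, which regenerates active glucocorticoid, stood at 4.38, 2.9 and 5.55 CPM in the control and 0.896, 2.12 and 3.18 CPM in the treated libraries, with a log2 change of -1.18 ± 0.56 (SE). SRD5A1, a steroid reductase that acts on progesterone, had 39.7, 27 and 19.3 CPM in the control and 24.5, 16.5 and 15.3 CPM in the treated libraries. HSD17B11, a dehydrogenase of steroids, had 95.2, 173 and 141 CPM in the control and 50.6, 57.9 and 106 CPM in the treated libraries. CYP26A1, which clears retinoic acid, had 176, 33.1 and 26.3 CPM in the control and 2.88, 31.6 and 7.72 CPM in the treated libraries, with its largest difference in cow A. The 4 higher genes were HSD17B10, HSD17B8, HSD17B4 and HSD17B12, dehydrogenases that also serve fatty acid metabolism. HSD17B10 had 48.2, 44.8 and 62.7 CPM in the control and 103, 76.2 and 80 CPM in the treated libraries, without overlap of the groups. Glucocorticoid-responsive genes went both ways, with 9 of 23 lower and 4 higher in 3 of 3 cows and 0 called. The metallothionein MT2A had 22, 43 and 12.4 CPM in the control and 4.73, 8.32 and 7.92 CPM in the treated libraries. TSC22D3, the leucine zipper protein known as GILZ, had 344, 306 and 191 CPM in the control and 873, 359 and 336 CPM in the treated libraries. Estrogen-responsive genes had a median of -0.41 over 18 genes, 0 called. This was -0.24 without the treated library of cow A and -0.15 without the control library of cow C.

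In the prostaglandin and oxytocin list, 0 of 20 genes were called and 4 each were higher and lower in 3 of 3 cows. SLCO2A1, given above, had a log2 change of -2.16 ± 0.56 (SE; unadjusted p = 0.00256, adjusted p = 0.87 by edgeR). PTGER2, a receptor for prostaglandin E, had 12.1, 7.25 and 18.5 CPM in the control and 3.52, 4.45 and 10.5 CPM in the treated libraries. PTGFR, the receptor for prostaglandin F, had 0.395, 2.12 and 3.46 CPM in the control and 0, 0.455 and 0.877 CPM in the treated libraries. PTGS2, the inducible cyclooxygenase, stood at 195, 66 and 206 CPM in the control and 15.7, 109 and 74.6 CPM in the treated libraries, and its direction differed between cows. AKR1B1, a prostaglandin F synthase of the bovine endometrium, stood at 3667, 2145 and 933 CPM in the control and 3290, 3217 and 1212 CPM in the treated libraries, with a log2 change of 0.34 ± 0.59 (SE). OXTR, the oxytocin receptor, stood at 113, 189 and 1184 CPM in the control and 64.8, 213 and 703 CPM in the treated libraries. The libraries of cow C were above all others for OXTR, and the change of -0.45 ± 0.63 (SE) did not have the same sign in the 3 cows.

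Nuclear genes for oxidative phosphorylation had the most even mean changes across the 3 cows of the 36 lists. Of 26 genes, 0 were called, 23 were higher in 3 of 3 cows and 0 were lower in 3 of 3. Of all genes tested, 19.4% were higher in 3 of 3 cows. Among genes neither risers nor fallers that share was 21.8% from 10 to 100 CPM and 35.4% above 100 CPM. Risers made up 3 of the 26, against 7.82% of all genes tested. The mean log2 change was 0.27 in cow A, 0.21 in cow B and 0.24 in cow C, with a median of 0.25. ATP5MC1, a subunit of the ATP synthase ring, stood at 59.3, 53.9 and 63.2 CPM in the control and 104, 77.1 and 86 CPM in the treated libraries, with a log2 change of 0.57 ± 0.32 (SE). CYC1, the cytochrome of the third complex, stood at 196, 147 and 168 CPM in the control and 258, 204 and 199 CPM in the treated libraries. SDHC, a subunit of succinate dehydrogenase, stood at 118, 96.6 and 92 CPM in the control and 138, 107 and 121 CPM in the treated libraries. The groups did not overlap for ATP5MC1 and CYC1, while the treated library of cow B was below the control library of cow A for SDHC. The list's median ranged from 0.11 to 0.35 when 1 of the 6 libraries was left out, lowest without the control library of cow A; it was 0.16 without the treated library of cow C. The genes encoded in the mitochondrion itself had a median of 0.23 over 13 genes, with a mean of 0.22 in cow A, 0.58 in cow B and -0.06 in cow C. Their median turned to -0.05 without the treated library of cow B and was 0.39 without that of cow C.

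Lipid genes went both ways. Of 31 genes of fatty acid and triglyceride metabolism 0 were called, 11 were higher and 5 lower in 3 of 3 cows, and the median was 0.16. Leaving out the treated library of cow B turned it to -0.03 and leaving out the control library of cow C to -0.01, and without the control library of cow A it was 0.08. The acyl-CoA synthetase ACSL5 was lower in each cow, at 55.1, 156 and 117 CPM in the control and 20.9, 61.2 and 76.1 CPM in the treated libraries, with -1.10 ± 0.42 (SE). ACSL3, of the same enzyme family, had 838, 445 and 311 CPM in the control and 1157, 617 and 424 CPM in the treated libraries. ACSL4, another, had 1545, 633 and 814 CPM in the control and 2638, 892 and 1230 CPM in the treated libraries. Both were higher in each cow. CPT1A, which brings fatty acids into mitochondria, had 139, 136 and 163 CPM in the control and 338, 182 and 195 CPM in the treated libraries, with treated libraries all above the control libraries. Cholesterol synthesis had a median of 0.13 over 23 genes and means of -0.39, 0.09 and 0.42 in cows A, B and C, so that the cows differed in sign. The cholesterol median was -0.03 and -0.01 without the control or the treated library of cow C, 0.04 without the treated library of cow B, and 0.26 and 0.24 without the control or the treated library of cow A.

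Transporters of amino acids, glucose and ions had a median of -0.44 over 31 genes, 0 called, with 13 lower and 5 higher in 3 of 3 cows. The median was -0.71 without the control library of cow C. Their summed level, set mostly by genes of high level, was instead higher in each cow. It was 6526, 4105 and 3117 CPM in the control and 9389, 5809 and 4072 CPM in the treated libraries. CFTR, the chloride channel, stood at 113, 63.6 and 64.7 CPM in the control and 4.41, 48.9 and 49.4 CPM in the treated libraries. Cow A carried most of that difference. SLC1A5, a glutamine transporter, had 15.1, 52.6 and 55.1 CPM in the control and 7.93, 27.1 and 30.3 CPM in the treated libraries. AQP3, a water and glycerol channel, had 2.77, 23.4 and 4.93 CPM in the control and 0.128, 5.56 and 3.07 CPM in the treated libraries. SLC38A1, a glutamine carrier, was higher in each cow with 249, 153 and 157 CPM in the control and 449, 194 and 194 CPM in the treated libraries. Cytosolic ribosomal proteins had a median of -0.36 over 20 genes, with 9 lower and 0 higher in 3 of 3 cows; the means were -0.35 in cow A, -0.82 in cow B and 0.03 in cow C. The ribosomal median was -0.06 without the control library of cow B and -0.60 without the treated library of cow C.

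Mucosal defence genes, which code for secreted and membrane proteins that protect the uterine surface, had a median of -0.87 over 14 genes and means of -0.97, -0.57 and -0.69 in cows A, B and C. None was called, 7 were lower and 0 higher in 3 of 3 cows. LTF, the iron-binding lactoferrin, stood at 1288, 14190 and 3568 CPM in the control and 336, 3666 and 2470 CPM in the treated libraries. PIGR, which carries immunoglobulin A into secretions, stood at 261, 1587 and 695 CPM in the control and 62.2, 433 and 482 CPM in the treated libraries. Cow B was the highest of the control libraries for both. Their log2 changes were -1.47 ± 1.22 and -1.51 ± 1.26 (SE), with intervals that reached well past 0. MUC1, a mucin of the apical membrane, had 157, 403 and 467 CPM in the control and 109.7, 304 and 326 CPM in the treated libraries. TFF3, a trefoil peptide of mucus, had 143, 652 and 272 CPM in the control and 59.4, 139 and 197 CPM in the treated libraries. MUC4, another membrane mucin, had 91.2, 18.2 and 143 CPM in the control and 38.2, 10.1 and 73.4 CPM in the treated libraries. General epithelial markers had a median of -0.27, with 8 of 18 lower and 3 higher in 3 of 3 cows; it was -0.12 without the control and -0.11 without the treated library of cow A. KRT8, a keratin of simple epithelium, stood at 422, 531 and 721 CPM in the control and 382, 434 and 568 CPM in the treated libraries. ESRP2, an epithelial splicing factor, was higher with 79.2, 108 and 114 CPM in the control and 134, 123 and 133 CPM in the treated libraries.

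Keratins of squamous and basal cells were lower in part. Beside KRT15, KRT17 had 14.1, 33.5 and 65 CPM in the control and 2.69, 9.89 and 24.9 CPM in the treated libraries. KRT5 had 3.16, 65.4 and 2.8 CPM in the control and 1.15, 12.3 and 2.55 CPM in the treated libraries. KRT14, the partner of KRT5 in basal cells, was higher in each cow with 4.12, 4 and 6.33 CPM in the control and 8.67, 9.13 and 8.16 CPM in the treated libraries. Of the 8 genes of this list 4 were lower and 3 higher in 3 of 3 cows, with a median of -1.05, which was -0.24 without the control library of cow B. Ciliated cell markers had a median of -0.62 over 19 genes with means of -1.43, -0.28 and 0.26 in cows A, B and C. The ciliated median was -0.16 and -0.30 without the control or the treated library of cow A, and -0.94 without the control library of cow C. FOXJ1, the regulator of motile cilia, stood at 34.1, 122 and 43.9 CPM in the control and 11.2, 104 and 43.3 CPM in the treated libraries. In the matrix remodelling list 9 of 29 genes were lower and 1, TIMP3, higher in 3 of 3 cows, with a median of -0.78 and 0 called; without the treated library of cow C the median was -0.36. TIMP1, an inhibitor of matrix proteases, stood at 13.7, 19.3 and 37.4 CPM in the control and 4.61, 10.2 and 18.1 CPM in the treated libraries, with -1.14 ± 0.41 (SE). FN1, fibronectin, stood at 76.4, 114 and 576 CPM in the control and 21.9, 43.6 and 213 CPM in the treated libraries, with -1.54 ± 0.53 (SE). The stromal marker sums moved in different directions, from 101.7 to 361.5 CPM in cow A, 501.5 to 174.3 CPM in cow B and 4001 to 2764 CPM in cow C; their part in the values of FN1 and the matrix genes was not tested.

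Lists of inflammation and of myeloid cells had strongly negative means in cows A and C and means near or above 0 in cow B. Inflammatory cytokines and chemokines had means of -1.40 in cow A, -0.16 in cow B and -1.55 in cow C and a median of -0.86 over 22 genes, with 0 called, 8 lower and 0 higher in 3 of 3 cows; the median was -1.42 without the treated library of cow B. CXCL2 had 1.1, 4.87 and 18.9 CPM in the control and 0.384, 1.34 and 2.77 CPM in the treated libraries. CXCL5, a related chemokine, had 2.37, 8.06 and 21.6 CPM in the control and 0.704, 3.24 and 5.31 CPM in the treated libraries. IL18, a cytokine of epithelium and macrophages, had 10.5, 11.6 and 7.26 CPM in the control and 1.09, 6.27 and 4.19 CPM in the treated libraries. CD14, the co-receptor for bacterial lipopolysaccharide on macrophages, stood at 22.8, 18.2 and 66.8 CPM in the control and 3.17, 8.8 and 18.3 CPM in the treated libraries, with -2.01 ± 0.62 (SE). S100A8 of neutrophils stood at 7.74, 10.5 and 17.8 CPM in the control and 0, 10.6 and 1.92 CPM in the treated libraries. The 4 defining neutrophil markers summed to 16.3 and 0.704 CPM in the control and treated libraries of cow A, 20.2 and 36.6 CPM in cow B, and 44.5 and 8.93 CPM in cow C. The 4 macrophage markers summed to 48.0 and 15.2 CPM in cow A, 55.98 and 84.5 CPM in cow B, and 162.8 and 84.5 CPM in cow C. These sums moved in the same direction as the list in each cow except for the slightly negative mean of cow B, and their part in the cytokine values was not tested. PTPRC, which all white blood cells carry, had 41, 41.6 and 66.9 CPM in the control and 33.6, 60.2 and 48.7 CPM in the treated libraries.

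Interferon-stimulated genes were lower mainly in cow A. The means were -2.09 in cow A, 0.01 in cow B and -0.46 in cow C, with a median of -0.91 over 22 genes, 0 called, 11 lower and 0 higher in 3 of 3 cows. IFI27 stood at 32.2, 18.3 and 7.02 CPM in the control and 8, 2.88 and 5.51 CPM in the treated libraries, with a log2 change of -1.93 ± 0.67 (SE). ISG15, the ubiquitin-like modifier, had 29.7, 16.4 and 5.77 CPM in the control and 2.37, 10 and 2.08 CPM in the treated libraries. MX1, an antiviral GTPase, had 242, 78.9 and 83.3 CPM in the control and 44.8, 133 and 64.3 CPM in the treated libraries. IFI44 had 15.7, 6 and 2.85 CPM in the control and 3.26, 3.64 and 1.26 CPM in the treated libraries. The control library of cow A was the highest of the 6 for these 4 genes. The list's median was -0.16 without the control and -0.36 without the treated library of cow A, and -1.63 without the treated library of cow B. Immediate early genes, which respond within minutes to handling and signals, had means of -1.68, 1.88 and -3.02 in cows A, B and C. T and NK cell markers summed lower in 3 of 3 treated libraries, at 67.5 and 47.6 CPM in cow A, 72.95 and 66.2 CPM in cow B, and 89.6 and 64.1 CPM in cow C.

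**Figure D4:**
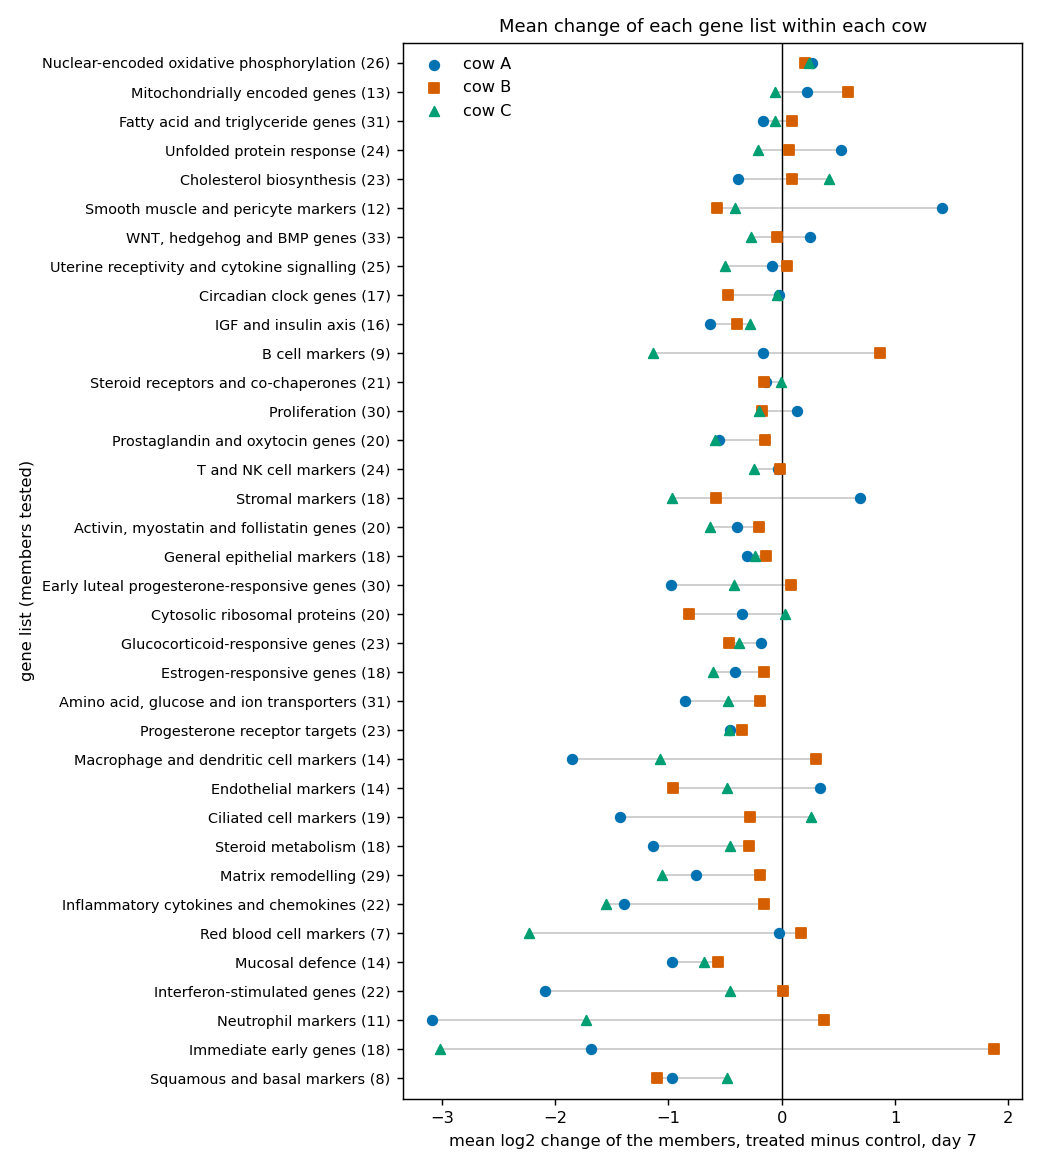
Mean log2 change of treated over control on day 7 (horizontal axis) of each of 36 gene lists, with the number of members tested in brackets, in cows A, B and C; the grey line spans the 3 cows. Oxidative phosphorylation sits between 0.21 and 0.27 in all 3 cows, mucosal defence between -0.97 and -0.57, and the neutrophil and immediate early lists have cow B on the other side of 0 from cows A and C.

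Proliferation genes had a median of -0.16 over 30 genes, with 10 lower and 2 higher in 3 of 3 cows and 0 called. MKI67, which marks dividing cells, stood at 9.09, 26.2 and 66.7 CPM in the control and 8.8, 25 and 49 CPM in the treated libraries, with differences far smaller than those between the cows. CCNB1, a mitotic cyclin, was higher in each cow with 343, 153 and 120.2 CPM in the control and 627, 232 and 199 CPM in the treated libraries. Each of the 6 libraries moved the proliferation median when it was left out: it was -0.63 and 0.21 without the control or the treated library of cow A, 0.28 and -0.58 for cow B, and 0.22 and -0.41 for cow C. In the list of WNT, hedgehog and BMP genes the median was -0.01 over 33 genes and was 0.004 with DESeq2's size factors (RLE). It lay between -0.05 and 0.12 when 1 of the 6 libraries was left out and was above 0 except without the control library of cow A or the treated library of cow B. BMP4, a bone morphogenetic protein, was lower in each cow at 5.14, 13.6 and 25.3 CPM in the control and 4.03, 5.87 and 9.4 CPM in the treated libraries. LIF, the cytokine of receptivity, had 0.565, 1.43 and 17.2 CPM in the control and 0.256, 0.556 and 2.85 CPM in the treated libraries, with its highest values in cow C. INHBB, an activin subunit, had 5.56, 13.8 and 72.3 CPM in the control and 3.39, 8.75 and 20.4 CPM in the treated libraries. The clock gene RORA had 3.95, 7.7 and 7.17 CPM in the control and 1.73, 3.34 and 5.48 CPM in the treated libraries. The stress sensor ERN1 of the unfolded protein response was higher with 26.4, 24.6 and 37 CPM in the control and 93.6, 30.6 and 48.8 CPM in the treated libraries.

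The cows given P4 received a different agent and dose, 100 mg P4 in place of 100 mg 17-OHPC with 10 mg P4, so the values are set side by side. In that arm 0 of 19638 genes (0.0%) were called, with 881 (4.49%) at an unadjusted p under 0.05 by edgeR; 23 were called by DESeq2. There 35 genes (0.178%) were higher and 86 (0.438%) lower by at least 1 on the log2 scale in 3 of 3 cows. A test of the difference between the treatment responses of the arms called 0 genes (0.0%), with 492 (2.51%) at an unadjusted p under 0.05, a lowest adjusted p of 1, and 3 called by DESeq2. PGR had a log2 change of 0.61 ± 0.25 with 17-OHPC and P4 and -0.07 ± 0.25 with P4, SAT1 1.01 ± 0.30 and 0.07 ± 0.30, and IL4R -0.79 ± 0.14 and -0.21 ± 0.14 (SE, n = 3 cows each). CD44 had -1.69 ± 0.42 and -1.82 ± 0.43, and CXCL2 -2.15 ± 0.54 and -1.91 ± 0.51. SAT1, IL4R, CD44 and CXCL2 were chosen by their p in cows A to C, which favours a larger change in that arm.

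By the smallest p of the difference, RNASE4, ADGRG6 and HSD17B14 were relatively higher with 17-OHPC and P4, and NR1I3, C16orf96 and DUOX2 relatively lower, each with an adjusted p of 1 by edgeR. RNASE4, a secreted ribonuclease, stood at 20.5, 36.1 and 26.4 CPM in the control and 39.9, 51.7 and 26.6 CPM in the treated libraries, and at 69.1 and 36.5 CPM in cow D, 34.3 and 28.7 CPM in cow E and 48.2 and 30.4 CPM in cow F. It was higher in 3 of 3 cows of one arm and lower in 3 of 3 of the other, and the difference was 1.10 ± 0.29 (SE; unadjusted p = 0.00294, adjusted p = 1 by edgeR). ADGRG6, an adhesion receptor, differed by 1.74 ± 0.50 (SE). NR1I3, the nuclear receptor CAR, was at or below 0.567 CPM in the 6 libraries of cows A to C, and at 0.143 and 0.739 CPM in cow D, 0.139 and 1.34 CPM in cow E and 0.168 and 0.988 CPM in cow F. Its difference was -3.08 ± 0.68 (SE), with within-cow changes of -0.50 to -0.15 in cows A to C and 2.00 to 2.84 in cows D to F. C16orf96 and DUOX2 were likewise at or below 0.589 CPM in every library of cows A to C.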

How the data were processed

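Poly(A) RNA of 18 endometrial brush samples was sequenced as read pairs on a DNBSEQ-G400, per the labels' protocols. The authors deposited raw counts per gene; per the submitters' processing notes the tools were cutadapt, FastQC, STAR, featureCounts and DESeq2, and the sources used here give no version, genome build, annotation, strand setting or way of counting pairs. Without strand, reads of a gene and an overlapping antisense gene cannot be told apart, and close gene copies are uncertain. Of counts from 1 to 5, 79.1% were even. Whether both mates of a pair were counted is not given in the sources used here; if they were, the totals count reads and not fragments, and the counting precision is lower than the totals imply. Halved counts were therefore run as an alternative. The table had 38001 rows, 17715 without a symbol, and 0 columns of other samples. Totals over all libraries were 29347255 to 40733544.

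Counts were tested with edgeR 4.0.16 in R 4.3.3 (TMM scaling, filterByExpr, robust quasi-likelihood F test, 19638 genes, Benjamini-Hochberg adjustment, threshold 0.05), with terms for day 4 and treatment in each arm over all 18 libraries. The cow was a block, because same-lettered libraries are the same animal: deviations of the same cow correlated at 0.393 to 0.718 in cows A to C (9 pairs) and those of different cows at -0.629 to 0.027. In cows D to F the same-cow correlations were -0.071 to 0.357. Deviations were taken from the mean of each group and sum to 0 within it. Negative values between cows therefore follow in part from positive values within a cow. A fit without the block is given as an alternative: it called 0 genes, as did the fit with it. SE is the log2 change over the root of F. Within-cow changes use log2 CPM with a prior count of 2. With 3 pairs, an exact sign-flip test of one gene cannot go below p = 0.25.

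Genes named are the 10 higher and 10 lower with the smallest p that moved the same way in 3 of 3 cows, the member of each list with the smallest p, the 3 higher and 3 lower by the difference between arms, and a fixed set; a gene so chosen is not reported here, and further list members are given as examples chosen after their values were seen. The comparison, gene lists and rules were chosen with earlier results of these data known. Alternatives were other scalings, filters, tools (limma 3.58.1, DESeq2 1.42.0), fits on the compared libraries only and leaving out each day 7 library.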

Additional observations from a re-analysis of the deposited data

Results flagged for a closer look

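The T and NK cell marker list had mean changes of opposite sign in the arms. Its mean log2 change was -0.029, -0.014 and -0.248 in cows A, B and C (mean -0.097) and 0.609, 0.340 and 0.320 in cows D, E and F. The mean over all genes tested was -0.169, -0.055 and -0.106 in cows A, B and C and 0.090, 0.041 and -0.152 in cows D, E and F, so the list was above that mean in cows A, B, D, E and F and below it in cow C. The difference was not tested, and the arms differ in agent and dose. Of the 24 markers, 15 were called lower on day 7 than on day 4 of the untreated cycle of cows D to F. Over all genes tested 7.33% were called lower there. The mean changes of cows D to F are measured from the same control day 7 libraries, so these observations are not independent.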

How the results depend on the processing

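The count of called genes was 0 in the 17-OHPC/P4 arm with and without the replicate block, with RLE and upper quartile scaling, with other filters, with limma voom, with halved counts (added after seeing the data), with only the compared libraries and without any of the 12 day 7 libraries in turn. At an unadjusted p under 0.05 it gave 850 genes with the block and 371 without, 1054 in voom, 2583 with the 6 libraries alone, and 281 (without the control library of cow A) to 1562 (without that of cow F) when a library was left out. DESeq2 called 8 genes here, 3 for the difference between arms and 23 for P4; the cause was not tested. Leaving out a library gave 0 to 1 genes for the difference and 0 to 2 for P4.

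The riser median, 0.279, was 0.269 with no replicate block, 0.291 with no filter, 0.268 with a filter of 1 CPM, 0.256 in voom, 0.235 in DESeq2, 0.302 with halved counts and 0.421 with the list from cows D to F alone; without a library it ranged from 0.259 to 0.388, and the faller median from -0.279 to -0.05. Each alternative also changes which genes are risers.

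Over 21 alternatives, 1593 of 1609 values of the 77 named genes kept their sign and stayed above the threshold. Of the rest, 3 were called, all in DESeq2 (IL4R, ALDOC and KRT15), and 13 changed sign. Many of these genes were chosen for a small p, some also for the same direction in each cow, which favours a kept sign. Some alternatives left out a library of cows D to F, which is not among the libraries compared. The count of kept signs is therefore no measure of robustness by itself. Without a block HAND2 was -0.097. When a library was left out, log2 changes ranged from -0.299 to 0.07 for ESR1, -1.174 to 0.322 for IHH, -0.305 to 1.146 for HAND2, -0.773 to 0.079 for DGAT2, -0.182 to 0.748 for AKR1B1, -2.486 to 0.155 for PTGS2, -0.888 to 0.312 for MKI67 and -0.372 to 0.203 for PTPRC. With 3 cows and at least 32818851 counts per library, the median 95% interval of a log2 change reached 0.809 to either side, so a smaller difference could not be told from 0 at the median gene even before adjustment.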
